A study of Mus musculus with 6 samples.

Results

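The 6 transcription factor genes Tbx21, Eomes, Gata3, Rora, Foxp3 and Ikzf2 were taken from the 20394 genes of the deposited table by their symbols, and all 6 were present. They were followed in T cells, natural killer (NK) cells and group 2 innate lymphoid cells (ILC2) of the inflamed mouse joint. Single-cell RNA sequencing (10x, 3′ end) had been run on CD45+ synovial cells of C57BL/6 mice with antigen-induced arthritis, a model in which animals immunised with methylated bovine serum albumin (mBSA, 10 μg in complete Freund's adjuvant) receive 100 μg mBSA into the joint on day 21. Joints were taken 3 days after that challenge from male mice that were 8 weeks old at purchase. All groups shared the immunisation and the challenge: 2 samples came from mice given PBS and 4 from mice given PEPITEM (300 μg, intraperitoneal), a peptide that limits leukocyte migration. The table pools the samples, and the library number that ends each cell barcode is not linked to a treatment in the sources used here. No PBS against PEPITEM comparison was therefore made, and values are given over all cells with the lowest, median and highest of the 6 libraries, whose treatment is unknown.

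Lineage choice in lymphocytes is set by a small group of DNA-binding proteins. T-bet (Tbx21) and its T-box relative Eomesodermin (Eomes) drive type 1 immunity, with interferon-γ and cytotoxicity, in NK cells, CD8 T cells and T helper 1 cells. GATA3 (Gata3) and RORα (Rora) are needed for ILC2, GATA3 also directs T helper 2 cells, and RORα takes part in interleukin-17-producing cells. FOXP3 (Foxp3) defines regulatory T (Treg) cells, and Helios (Ikzf2), an Ikaros family zinc finger protein, is found in most Treg cells and in other T and NK cells.

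The genes lie on mouse build GRCm38 at chr11:97098071-97115331 (Tbx21, minus strand), chr9:118478212-118486132 (Eomes, plus), chr2:9857078-9890034 (Gata3, minus), chr9:68653786-69388246 (Rora, plus), chrX:7573644-7595245 (Foxp3, plus) and chr1:69531214-69687245 (Ikzf2, minus), by GENCODE M21. Foxp3 overlaps Flicr on its own strand and Ppp1r3f, Ccdc22 and Gm36995 on the other, Gata3 overlaps 9230102O04Rik and Ikzf2 overlaps Gm29112 and Gm28112 on their own strands, so counts of these genes are less certain where they share reads. The 250 bases before the RefSeq gene start were searched on both strands for 5 short motifs. The T-box letters AGGTGTG were in 5.10% of the 32851 mouse promoters searched, AGATAA of the zinc finger GATA family in 9.99%, AGGTCA of the ROR receptors in 14%, GTAAACA of the forkhead family in 3.17% and TGTGGTT of the Runx family in 4.40%. Among the 5 members with a promoter entry, only the second of the Foxp3 entries held any of these letters: AGGTCA at 91 bases before the start, its reverse complement at 70 bases and AGATAA at 47 bases. The 100 bases before the start are shown for Foxp3, with those letters in capitals, and for Tbx21 and Eomes, the pair most often found together in NK cells (RefSeq, GRCm38.p6, 5′ to 3′ on the gene's strand). A match describes letters only.
Foxp3, chrX:7580383-7580482, plus strand: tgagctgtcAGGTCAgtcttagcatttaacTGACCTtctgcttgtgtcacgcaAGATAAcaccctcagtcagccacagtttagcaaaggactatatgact
Tbx21, chr11:97115332-97115431, minus strand: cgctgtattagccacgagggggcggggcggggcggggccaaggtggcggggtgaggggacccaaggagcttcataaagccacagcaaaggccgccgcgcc
Eomes, chr9:118478089-118478188, plus strand: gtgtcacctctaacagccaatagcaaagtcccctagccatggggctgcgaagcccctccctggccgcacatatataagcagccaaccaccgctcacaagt

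The table held 32953 cells in 6 libraries of 2919 to 9345 cells, with 47273569 to 123367661 unique molecular identifiers (UMIs, each a counted transcript) per library and a median of 9923 to 14001 per cell. Cells were gated on marker genes, none of which is a member. T cells needed Cd3e and at least 3 UMIs of Cd3 and T cell receptor genes, the NK gate needed 2 of 6 NK receptor genes without Cd3e and also takes other group 1 innate lymphoid cells, and the ILC2 gate needed 2 of 7 ILC2 genes without Cd3e. Cells with 2 or more markers of a class outside T, NK and ILC2, progenitors aside, were left out of these gates. The gates held 950 T cells (134 to 172 per library, median 9361.5 UMIs per cell), 301 NK cells (34 to 78, 8809 UMIs) and 124 ILC2 (13 to 32, 6509 UMIs). Markers were shared among the lymphoid gates. The T gate held summed NK markers at 321 CPM (145 to 545 by library; 2611 in the NK gate) and ILC2 markers at 381 CPM (162 to 649; 3524 in the ILC2 gate), with none of either list at 0. T markers summed to 704 CPM in NK cells (585 to 788) and 587 CPM in ILC2 (362 to 894), with Cd3e at 0 as the gates require, against 3220 CPM in T cells. ILC2 also held progenitor markers at 397 CPM (292 to 608), against 1573 CPM in progenitors, with Mecom and Cd34 at 0. In the T gate, summed B lineage markers were at 7.20 CPM (counts per 1000000 UMIs; 3.59 to 10.2 by library) against 13196 CPM in B lineage cells, and summed neutrophil markers at 5.23 CPM (0 to 14.4), with Ngp and Camp at 0. The exclusion itself holds down markers of the excluded classes in these gates, so low values of them do not measure purity. The 8 monocyte and macrophage markers summed to 147 CPM in T cells (83.1 to 216 by library), 266 in NK cells (168 to 405) and 203 in ILC2 (141 to 260), against 5499 CPM in their own class, and the part of any of these markers in the results was not tested. Barcode sequences that occurred in more than 1 library numbered 138, and 6 lymphoid-gate cells carried such a barcode. Intervals below are 95% (Wilson for shares of cells, exact Poisson for CPM) and cover counting error only. Where no cell was positive, the share said to be allowed is 3 cells over the cells of the gate or subset, not a Wilson limit. No test was run, since cells of 1 library are not replicates.

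Tbx21 and Eomes were highest in NK cells. Tbx21 stood at 322 CPM in the NK gate (95% interval 303 to 343), with libraries between 231 and 505 (median 321), at 119 CPM in T cells (112 to 125; libraries 69.4, 110 and 209 as lowest, median and highest) and at 3.86 CPM in ILC2 (1.05 to 9.89). No NK library overlapped a T cell library, and the pooled level in NK cells was 2.72 times that in T cells (interval of the ratio 2.50 to 2.96). At least 1 Tbx21 UMI was found in 84.4% of NK cells (254 of 301), 38.5% of T cells (366 of 950) and 2.4% of ILC2 (3 of 124).

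Eomes differed more sharply. It reached 320 CPM in NK cells (300 to 340; libraries 221 to 382, median 335) and 50.1 CPM in T cells (45.8 to 54.7; libraries 21.6 to 89.1, median 43.8), a ratio of 6.38 (5.73 to 7.12) in which all 6 libraries went the same way without overlap. None of 124 ILC2 held an Eomes UMI, which allows a share of up to 2.42%. With 3 UMIs as the floor over the gate, Eomes was 110-fold higher in the NK gate (interval from 89.7). Of all Eomes UMIs in the 32953 cells, 88.4% lay in these 3 gates, against 72.5% of Tbx21, 72.0% of Gata3, 65.5% of Foxp3, 64.0% of Ikzf2 and 50.4% of Rora UMIs.

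Gata3 and Rora were highest in ILC2. Gata3 reached 963 CPM there (905 to 1025; libraries 548 to 1283, median 976), against 92.0 CPM in T cells (86.2 to 98.1; libraries 77.4 to 106) and 79.7 CPM in NK cells (70.1 to 90.2; libraries 43.0 to 137). The ILC2 libraries lay above every T and NK library, with a ratio to T cells of 10.5 (9.56 to 11.5), whereas T and NK libraries overlapped and T cells were higher in 3 of 6. Gata3 was found in 87.9% of ILC2, 47.2% of NK cells and 43.6% of T cells.

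Rora, a nuclear receptor also used outside lymphocytes, reached 3731 CPM in ILC2 (3614 to 3851; libraries 3219 to 4505, median 3725), 780 CPM in T cells (763 to 798; libraries 541 to 1014) and 170 CPM in NK cells (156 to 185; libraries 86.0 to 268). These 3 sets of libraries did not overlap. Fibroblasts, which the CD45+ selection should leave out and of which 140 were gated, carried 574 CPM, with 470 to 818 CPM in the 4 libraries that held at least 10 of them, and overlapped T cells. Monocytes and macrophages had a low level of 36.5 CPM (libraries 27.3 to 45.9), but as 8883 cells they held 23.4% of all Rora UMIs. The ILC2 shares rest on the exclusion of cells with 2 or more markers of another class, without which 15.5% of gated cells held Gata3 and 32.2% held Rora.

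Foxp3 was mainly a T cell transcript. It stood at 48.3 CPM in T cells (44.2 to 52.8) and was found in 105 of 950 (11.1%, 9.21 to 13.2). The libraries spread widely, at 71.6, 27.0, 101, 21.7, 49.8 and 8.37 CPM for libraries 1 to 6, with 20.9% of T cells positive in library 3 and 5.3% in library 6. No NK cell of 301 held a Foxp3 UMI, and with 3 UMIs as the floor T cells were 50.5-fold higher (interval from 40.9). In the ILC2 gate 6 of 124 cells were positive (19.3 CPM; libraries 0 to 79.3), and those 6 all held Il1rl1, the interleukin-33 receptor that also gates ILC2, and all held Ctla4, an inhibitory receptor of Treg cells, and at least 1 Cd3 or T cell receptor gene other than Cd3e. Among the 118 Foxp3-negative cells of that gate, 110 held Il1rl1, 7 held Ctla4 and 85 held such a T cell gene.

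Ikzf2 was found in all 3 gates. T cells led with 1289 CPM (1267 to 1311; libraries 843 to 2086, median 1259), followed by ILC2 with 524 CPM (481 to 570; libraries 159 to 988) and NK cells with 305 CPM (286 to 325; libraries 136 to 456). T cells were above ILC2 in 6 of 6 libraries, yet the ranges of the libraries overlapped, and ILC2 were above NK cells in 4 of 6. Basophils (39 cells, 431 CPM), mast cells (197 cells, 165 CPM; libraries 57.7 to 361) and progenitors (548 cells, 143 CPM; libraries 112 to 208) also carried it. In basophils, 1 cell held 67 of the 121 Ikzf2 UMIs, and only library 2 held at least 10 basophils. In T cells, library 6 stood apart with 80.7% Ikzf2-positive cells, against 47.8% to 63.6% in the other libraries.

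**Figure D1:**
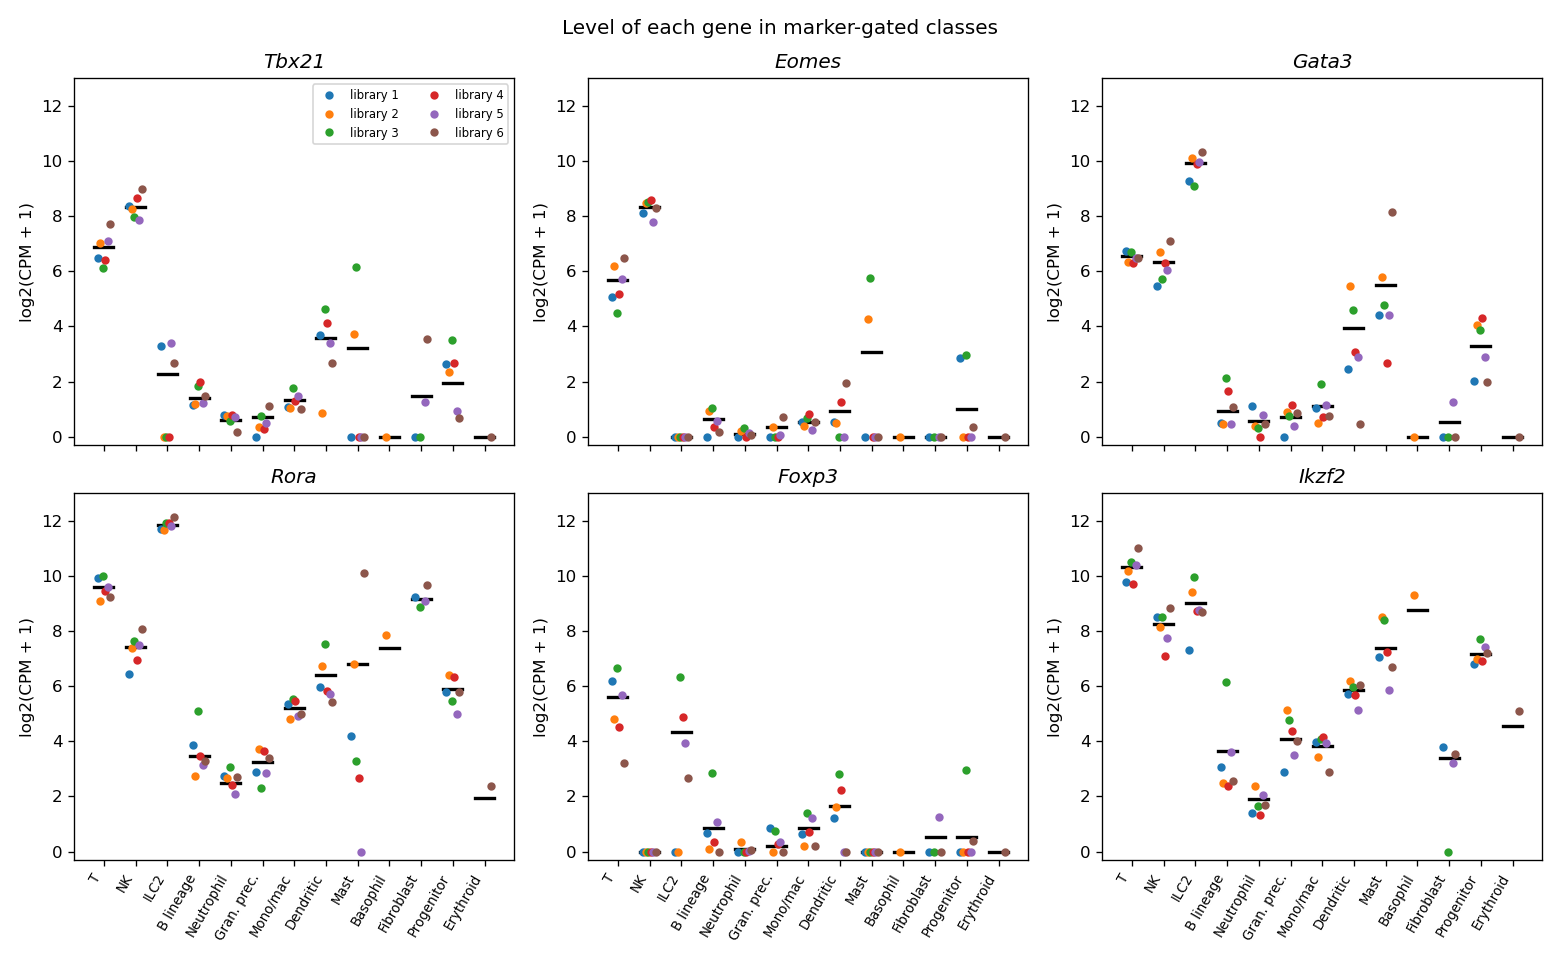
Level of each gene as log2(CPM + 1) on the y axis in 13 marker-gated classes on the x axis; points are libraries with at least 10 cells of the class, coloured by barcode library number, and black lines are all cells pooled. Tbx21 and Eomes peak in NK cells, Gata3 and Rora in ILC2, and Foxp3 and Ikzf2 in T cells, while Rora is also high in fibroblasts.

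Neutrophils, whose median depth of 8496 UMIs per cell was close to that of T cells, give the share seen in a class that should lack these genes. Tbx21 was found in 0.354% of 11865 neutrophils, Eomes in 0.0759%, Gata3 in 0.177%, Rora in 2.30%, Foxp3 in 0.0337% and Ikzf2 in 1.40%. The shares above lie over these values apart from Eomes in ILC2 and Foxp3 in NK cells, where no positive cell was found, and the 2.4% of ILC2 with Tbx21 rests on 3 cells (interval 0.826 to 6.87%).

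**Figure D2:**
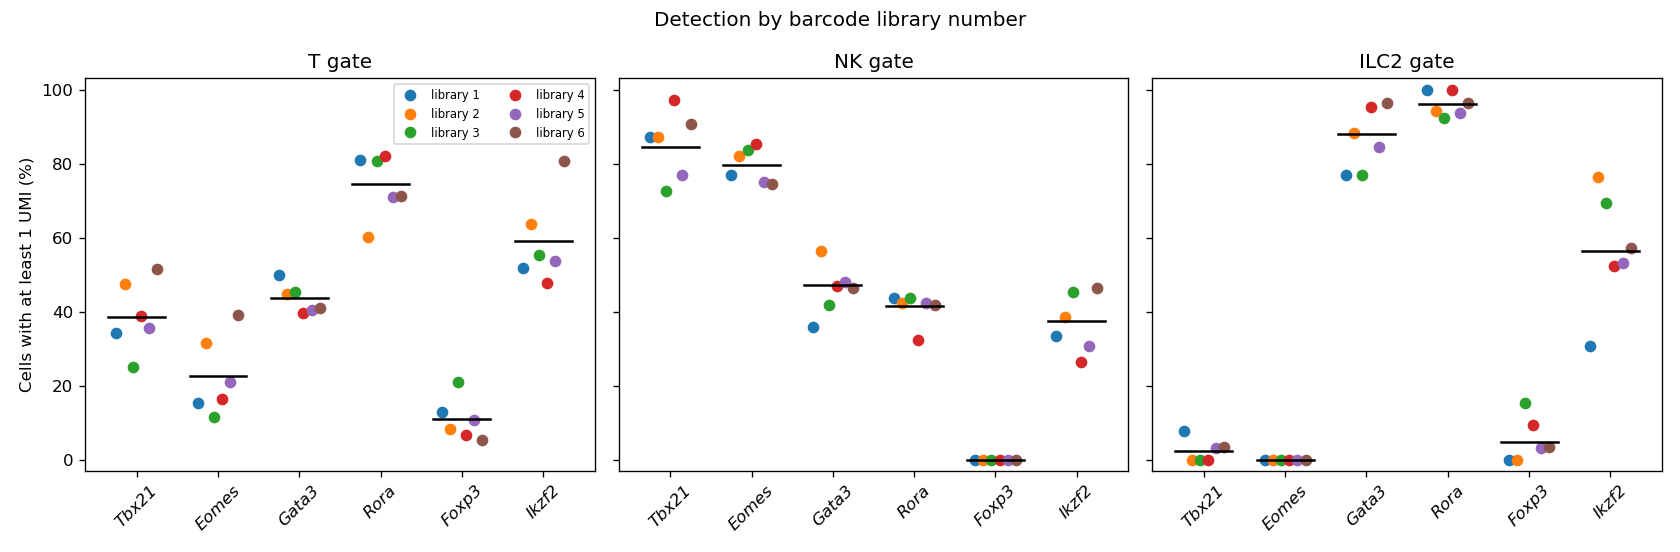
Share of cells with at least 1 UMI (y axis, %) for each gene in the T, NK and ILC2 gates; points are the 6 libraries and black lines all cells of the gate. Foxp3 in T cells runs from 5.3% in library 6 to 20.9% in library 3, and Eomes from 11.6% in library 3 to 39.2% in library 6.

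The T gate was then divided by receptor genes. Trdc, the constant chain of the γδ receptor, marked 164 cells, of which 42 (25.6%) also held Trac of the αβ receptor; they are called γδ cells below by that mark alone. Of the rest, 215 held Cd4 alone, 264 held Cd8a or Cd8b1 alone, 13 held both and 294 held neither, a group in which low detection of Cd4 or Cd8 transcripts and true double-negative cells cannot be told apart. In the neither group 86.7% held Trac and 28.9% held Zbtb16, the factor of innate-like T cells. Zbtb16 was in 47.0% of γδ cells, 3.7% of Cd4 and 2.3% of Cd8 cells.

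Eomes was frequent in Cd8 cells and was not detected in Cd4 cells. It was found in 106 of 264 Cd8 cells (40.2%, 34.4 to 46.2) and in 0 of 215 Cd4 cells, which allows a share of up to 1.40%. Tbx21 showed a weaker contrast, with 47.3% of Cd8 cells (41.4 to 53.4) and 22.3% of Cd4 cells (17.3 to 28.4), and γδ cells at 40.9%. The level of Tbx21 in Cd4 cells was 53.7 CPM (libraries 22.5 to 131) and in Cd8 cells 113 CPM (60.9 to 172), so that the libraries overlapped.

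Rora ran the other way. Cd4 cells carried 1297 CPM (libraries 1237 to 1423), γδ cells 1006 CPM (588 to 1530) and Cd8 cells 202 CPM (107 to 296). The Cd8 libraries lay below every Cd4 and γδ library. Gata3 was at 143 CPM in Cd4 cells (libraries 117 to 289) and 54.2 CPM in Cd8 cells (39.1 to 67.4), also without overlap.

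Foxp3 was found in 23.3% of Cd4 cells (50 of 215), 14.6% of cells with neither (43 of 294), 1.5% of Cd8 cells (4 of 264) and 0 of 164 γδ cells, which allows up to 1.83%. It was also in 8 of the 13 cells with both Cd4 and Cd8. Of the 105 Foxp3-positive T cells, 47.6% therefore carried Cd4 alone, 41.0% carried no Cd4 or Cd8 transcript and 7.6% carried both. Ikzf2 was most frequent in the neither group, at 79.3% (74.3 to 83.5) and 1909 CPM (libraries 1380 to 2344), followed by γδ cells at 69.5%, Cd8 cells at 48.5% and Cd4 cells at 36.3%.

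**Figure D3:**
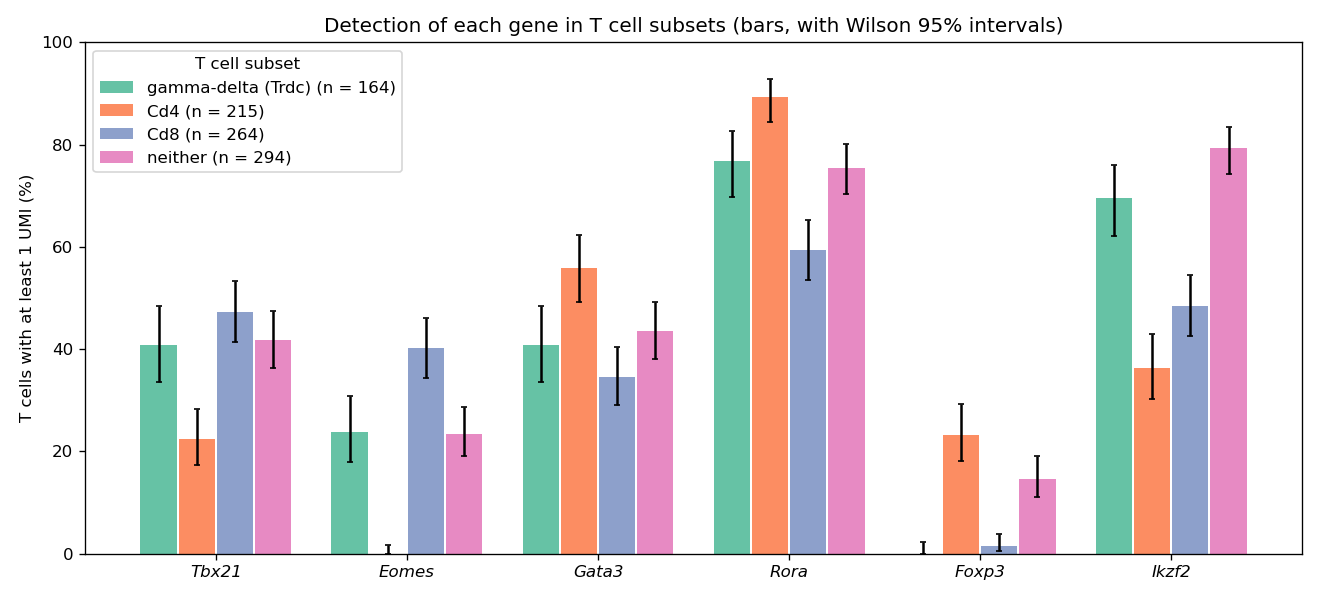
Share of T cells with at least 1 UMI (y axis, %) of each gene in 4 subsets; bars are all cells of the subset and error bars Wilson 95% intervals for counting error. Eomes is absent from the Cd4 bar and at 40.2% in Cd8 cells, Foxp3 is absent from γδ cells, and Ikzf2 peaks at 79.3% in cells with neither Cd4 nor Cd8.

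Members were also compared within single cells. Deeper cells show more genes, so each share was also computed with every cell thinned to 3000 UMIs, leaving out 15 T cells, 11 NK cells and 13 ILC2 that were shallower. Among T cells, 38 held no member, 166 held 1, 267 held 2, 277 held 3, and no cell held all 6.

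Foxp3 and Ikzf2 were found together in T cells. Ikzf2 was present in 99 of 105 Foxp3-positive cells (94.3%, 88.1 to 97.4) and 54.8% of Foxp3-negative cells (51.4 to 58.1), and the thinned shares were 94.4% and 46.7%. In the 4 libraries with at least 10 Foxp3-positive cells the shares were 85.7% to 97.2% against 44.1% to 61.1%, without overlap. The contrast was wider among Cd4 cells, with 92.0% (46 of 50) against 19.4%. Gata3 was also more frequent in Foxp3-positive T cells (69.5% against 40.4%; thinned 44.3% against 19.7%; higher in 4 of 4 libraries), as was Rora (89.5% against 72.7%; thinned 81.2% against 56.0%; 4 of 4), although among Cd4 cells Rora was at 88.0% and 89.7%, and Gata3 at 66.0% (52.2 to 77.6) and 52.7% (45.1 to 60.2), whose intervals overlapped.

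Foxp3 was seldom found with the T-box genes. Only 1 of 105 Foxp3-positive T cells held Eomes (0.952%, against 25.2% of Foxp3-negative cells), and 13 held Tbx21 (12.4% against 41.8%; lower in 4 of 4 libraries). Within Cd4 cells, Eomes was in 0 of 50 Foxp3-positive and 0 of 165 Foxp3-negative cells. Tbx21 there was in 12% of Foxp3-positive and 25.5% of Foxp3-negative cells, whose intervals overlapped (5.62 to 23.8 and 19.4 to 32.6).

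Tbx21 and Eomes went together. Eomes was in 37.2% of Tbx21-positive T cells (32.4 to 42.2) and 13.4% of Tbx21-negative ones (10.8 to 16.4), higher in 6 of 6 libraries, with thinned shares of 15.2% and 8.29%. Within Cd8 cells the shares were 56.8% and 25.2%, again in 6 of 6 libraries, with thinned shares of 25.1% and 15.6%. In NK cells, where 205 of 301 held both, Eomes was in 80.7% of Tbx21-positive and 74.5% of Tbx21-negative cells, with overlapping intervals. Eomes and Rora went apart in T cells, with Rora in 57.9% of Eomes-positive and 79.3% of Eomes-negative cells (lower in 6 of 6 libraries). Within Cd8 cells the shares were close, at 58.5% and 60.1%. Within γδ cells they were 48.7% (33.9 to 63.8) and 85.6% (78.4 to 90.7). In cells with neither Cd4 nor Cd8 they were 62.3% and 79.6%, with 1 of 3 libraries going the other way. Among T cells with neither Cd4 nor Cd8, all 69 Eomes-positive cells held Ikzf2, against 72.9% of the Eomes-negative ones.

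In NK cells Eomes and Rora also went apart. Rora was in 36.3% of Eomes-positive (30.4 to 42.5) and 62.3% of Eomes-negative NK cells (49.7 to 73.4), lower in 3 of 3 libraries with enough cells. After thinning the gap was smaller, at 19.7% and 31.4%. Ikzf2 was in 55.2% of Rora-positive (46.5 to 63.6) and 25% of Rora-negative NK cells (19.2 to 31.9), higher in 6 of 6 libraries and at 44.7% and 21.2% after thinning. In ILC2, 108 of 124 cells held both Gata3 and Rora, and 58 held Gata3, Rora and Ikzf2 and no other member.

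**Figure D4:**
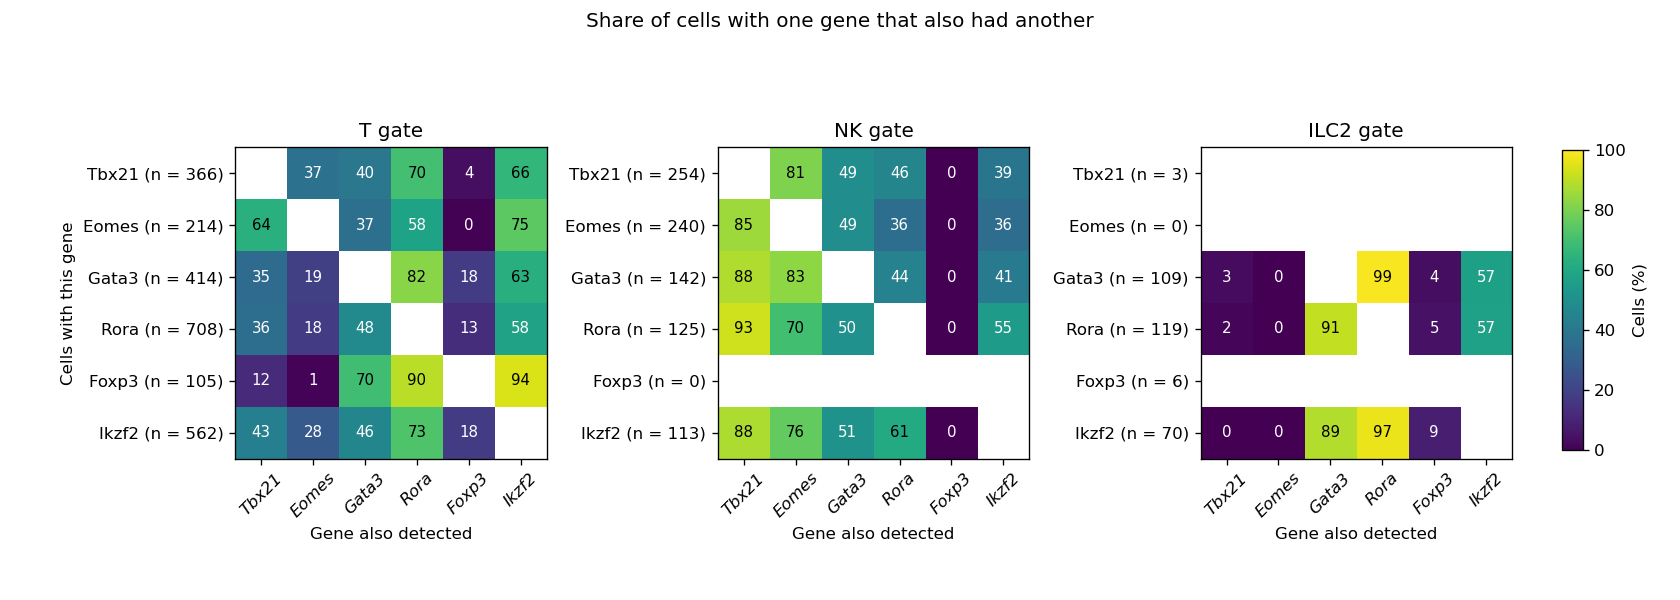
Share of cells with the row gene that also held at least 1 UMI of the column gene (%, colour and number) in the T, NK and ILC2 gates; rows with under 10 positive cells are blank. Foxp3-positive T cells hold Ikzf2 in 94% and Eomes in 1%, and Tbx21 and Eomes share most NK cells.

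Cells with a member were next set against cells of the same gate without it, gene by gene, as the ratio of summed CPM. Genes needed 50 UMIs over both sets and were counted as higher from 2-fold. Thinning to 3000 UMIs lowered these counts by over 1.5 times in each comparison except Eomes in T cells, for example to 462 for Foxp3 and 345 for Rora in T cells. It also leaves fewer UMIs per gene, and the number of genes still tested is not given here. Lost calls and genes no longer tested therefore cannot be told apart. In T cells, 730 of 9246 genes (7.9%) were higher in Foxp3-positive cells. All 13 genes of a Treg list that reached 50 UMIs were among them, with a median ratio of 10.8 against 1.03 over all genes. They included Ctla4 (2132 against 107 CPM, 19.9-fold, interval 18.4 to 21.5), Il2ra, the interleukin-2 receptor α chain (1372 against 182 CPM, 7.55-fold), Tnfrsf4, which encodes the costimulatory receptor OX40 (1868 against 73.8 CPM, 25.3-fold), and Ikzf4, which encodes the Helios relative Eos (141 against 10.2 CPM, 13.8-fold), each higher in 4 of 4 libraries. The remaining 3 list genes, Il10, Ebi3 and Gpr83, were under 50 UMIs, at 15.3, 24.0 and 8.72 CPM against 2.82, 2.60 and 0.542 CPM.

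The 5 genes that led by size were Ncmap (57.8 against 0.651 CPM), Lrrc32, the anchor of latent TGF-β on Treg cells (110 against 1.41 CPM, 78.1-fold, 43.7 to 152), Il1rl1 (631 against 9.33 CPM, 67.7-fold, 53.9 to 85.9), and the titin and nebulin genes Ttn (62.1 against 1.74 CPM) and Neb (176 against 4.99 CPM). Of all 9246 genes, 11.9% were at 0.5-fold or less in Foxp3-positive cells. Type 3 genes were lower in 11 of 14, with Il17a, Il17f and Il22 at 0 CPM in Foxp3-positive cells and 126, 46.6 and 12 CPM in the others. Type 1 genes were lower in 10 of 14, among them Ifng (8.72 against 114 CPM), while Gzmb, a granzyme (1963 against 187 CPM, 10.5-fold), and Hopx (588 against 86.8 CPM) were higher. Of the type 2 genes, 6 of 8 were higher, including the tissue repair factor Areg (464 against 47.7 CPM, 9.73-fold), while Il13, found in only 3 T cells in all, was at 0 against 7.27 CPM. Il2ra counts in both the type 2 and the Treg list. Other type 2 genes were under 50 UMIs in the T gate, among them Il4 (49 UMIs) and Il5 (4 UMIs). Tcf7, a factor of naive and memory T cells, was at 12 against 182 CPM.

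**Figure D5:**
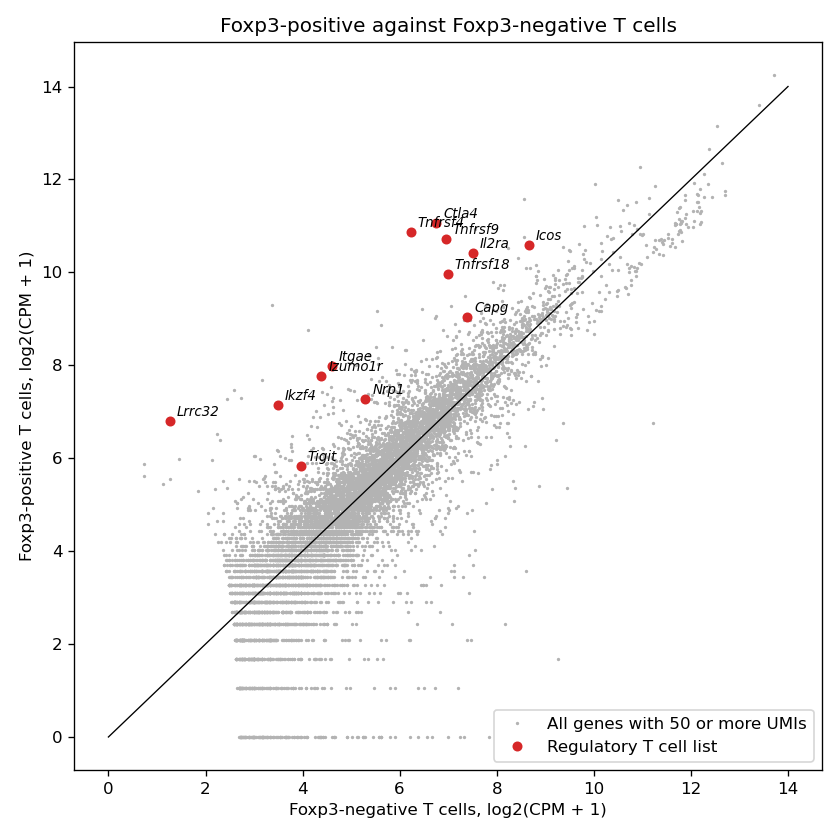
Level of each gene with at least 50 UMIs as log2(CPM + 1) in Foxp3-negative (x axis) and Foxp3-positive T cells (y axis); red points are the Treg list and the line marks equal levels. All 13 red points lie above the line.

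Genes of type 3 immunity were higher in Rora-positive T cells. In that comparison 692 of 9246 genes (7.48%) were higher, and with them 13 of 14 type 3 genes, 8 of 8 type 2 genes and 9 of 13 Treg genes, while Ltb was the type 3 gene that was not. Again Il2ra counts in both the type 2 and the Treg list. Il17a was at 154 CPM in Rora-positive cells and at 0 in Rora-negative ones, 133-fold higher with 3 UMIs as the floor (interval from 108). Il1r1 and Il23r, receptors for interleukins 1 and 23, stood at 169 against 1.54 CPM (110-fold, 42.7 to 403) and 214 against 4.24 CPM (50.5-fold, 28.2 to 101). The kinase gene Blk (71.3 against 1.16 CPM) and Pxdc1 (88.8 against 0.771 CPM) completed the 5 leading genes. Genes of naive cells were lower in 4 of 10, against 1.64% of all genes, among them Ccr7, Foxp1 and Lef1. The T gate mixes the subsets above, whose part in these ratios was not tested.

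Tbx21-positive T cells had 272 of 9246 genes higher (2.94%), among them 9 of 14 type 1 genes and no Treg gene of 13, while 10 of 13 Treg genes were lower, against 3.84% of all genes. Ifng led (197 against 22.5 CPM, 8.75-fold, 7.23 to 10.7), and Ccl4 (4.70-fold), Xcl1 (3.73-fold) and Fasl (2.49-fold) were higher in 6 of 6 libraries. The other leading genes were the NK receptor genes Klri1 and Klra9 and the mitosis genes Ccnb1 and Cenpf, and median depth was 11160.5 UMIs in positive and 8513.5 in negative cells. Eomes-positive T cells had 192 genes higher (2.08%), with 6 of 14 type 1 genes among them and 13 of 14 type 3 genes lower, against 6.75% of all genes lower. Their leading genes were Crtam, an adhesion molecule of cytotoxic cells (109 against 17.3 CPM, 6.29-fold, 5.10 to 7.81), Nrarp, Dmrta1, Klra6 and Tmtc4, at median depths of 12538 against 8639 UMIs. Gata3-positive T cells had 211 genes higher (2.28%), led by Nuf2, Hist1h2af, Ttn, Kntc1 and Dscc1, of which Nuf2, Kntc1 and Dscc1 act in cell division. Of the Treg list 4 of 13 were higher, Ctla4, Ikzf4, Itgae and Tnfrsf4, and 0 lower. Of the type 2 list 2 of 8 were higher, Il1rl1 (100 against 34.5 CPM) and Il13 (14 against 0 CPM, from those 3 cells, in 2 of 6 libraries), while 0 of 8 were lower (0.476% of all genes). Il1rl1 and Ttn also led in Foxp3-positive T cells, of which 69.5% held Gata3, and the part of those cells in these ratios was not tested.

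Ikzf2-positive T cells had 293 genes higher (3.17%). The inhibitory Ly49 receptor genes Klra6 (69.1 against 0.757 CPM, 91.3-fold, 31.0 to 444) and Klra7 (220 against 10.1 CPM, 21.8-fold, 15.9 to 30.6) were among the leading 5, with Dscam, Lrrc32 and Cd80. Of the Treg list 6 of 13 were higher, and of the type 1 list only Xcl1 (823 against 143 CPM, 5.75-fold). Foxp3 was in 17.6% of Ikzf2-positive and 1.55% of Ikzf2-negative T cells. The part of Foxp3-positive cells in these ratios was not tested. Of all genes 1.49% were lower, and with them Il17f and Il22, at 12.3 against 89.4 CPM and 0.809 against 26.8 CPM.

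In NK cells fewer list genes reached 50 UMIs, 4 of the type 3 list against 14 in T cells. Rora-positive NK cells had 66 of 6528 genes higher (1.01%), led by 5430421N21Rik, Tmem176b (58.6 against 2.88 CPM, 20.4-fold, 8.38 to 64.3), the interleukin-7 receptor gene Il7r (42.9 against 3.46 CPM, 12.4-fold, 5.38 to 35.2), Gpr183 and St6galnac3, and 3 of 4 type 3 genes were higher, Ltb, Tmem176a and Tmem176b, and 0 lower (0.383% of all genes). Ikzf2-positive NK cells had 71 higher (1.09%), led by Sema6d, Gzmc (202 against 16.5 CPM, 12.3-fold, 8.31 to 18.8), Tmem176a, Il2ra (93.9 against 11.2 CPM) and Plac8, while Ifng was at 66.1 against 154 CPM (1.58% of genes lower). Eomes-positive NK cells (176 genes higher, 2.7%) had Il7r at 7.66 against 87.9 CPM and Tmem176a at 6.51 against 134 CPM, each lower in 3 of 3 libraries, with 1.56% of genes lower. Their leading genes were Ube2c, As3mt, Cenpf, Atg4a and Gm6225. Each of these held only 2 to 4 UMIs in the 61 Eomes-negative cells, with ratio intervals that began at 1.92 (Atg4a) to 4.73 (Ube2c). Of the 14 type 1 genes, 0 were higher in Tbx21-positive NK cells (249 genes higher, 3.81%, led by Gzmc, Golph3l, Elp4, Jazf1 and Ginm1) and 0 in Gata3-positive ones (50 genes, 0.766%, led by Neil3, Zfand2a, Cenpp, Gm26870 and Tnf). In both comparisons 0 of those 14 were lower, against 0.98% and 0.49% of all genes. The 5 genes that led for Tbx21 held only 3 to 5 UMIs in the 47 Tbx21-negative NK cells. Their ratio intervals began under 2-fold for all but Gzmc, for example at 1.43 for Ginm1. In ILC2 only Ikzf2 had 30 positive and 30 negative cells. There 80 of 3369 genes (2.37%) were higher, led by Tcrg-C1, Basp1, Slc23a2, Fhl2 and Txk. Of 13 type 2 genes 2 were higher, Areg (1331 against 589 CPM) and Il5 (769 against 264 CPM), each in 2 of 3 libraries. Il4 was lower (163 against 557 CPM), as were 2.94% of genes, but was higher in 1 of 3 libraries. Il4 in the whole gate ran from 28.8 to 1058 CPM by library. Il5, Il13, Il1rl1, Il17rb and Calca of this list also gate ILC2. All 6 Foxp3-positive cells of the gate were Ikzf2-positive, and their part in these ratios was not tested.

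Across the 13 gated classes, the genes whose log2(CPM + 1) ran most like each member were found by Pearson correlation among 13689 genes, as a description over classes that share libraries. They were Ctsw, Gm20069 and Klrc2 for Tbx21 (r = 0.982 to 0.958), Qrfp, Klra9 and Klrc2 for Eomes (0.994 to 0.989), Csf2, Icos and Cxcr6 for Gata3 (0.953 to 0.950), Rrad and Sdf4 for Rora (0.910 and 0.896), Rln3, Cd40lg and Traj18 for Foxp3 (0.969 to 0.965), and Lat, Tnfrsf9 and Pglyrp2 for Ikzf2 (0.927 to 0.911).

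Outside the 3 lymphoid gates, 83 of the 194 Foxp3-positive cells remained, and 36 of those 83 held Cd3e, with 65.8% of the Foxp3 UMIs found there. Cd3e was present in 0.592% of all cells outside these gates. For Rora and Ikzf2, with 3853 and 1690 positive cells outside, 3.58% and 5.62% held Cd3e, against 14.2% of 367 for Tbx21, 24.1% of 83 for Eomes and 31.3% of 265 for Gata3.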

How the data were processed

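Reads were aligned to mm10 with Cell Ranger (version 7), and the authors removed ambient RNA with SoupX (1.6.2), doublets with DoubletFinder (2.0.3) and, in Seurat (4.3.0), cells over 10% mitochondrial content or outside 200 to 7000 genes. The deposited UMI counts per gene and cell, from the Single Cell 3′ kit v3.1, were used as they stand. They hold 1724738 stored zeros, which mark entries lowered to 0; in the T gate Rora had 3 and the other members 0. Whether intronic reads were counted is not given in the sources used here. Removal of ambient RNA lowers small counts, and 3′ counts have no length scaling, so levels were not compared between genes.

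Cells were gated on fixed markers, leaving out lymphoid-gated cells with 2 or more markers of a class outside T, NK and ILC2, progenitors aside. The thresholds were set after the files had been seen. CPM is the sum of a gene's UMIs over the sum of all UMIs. Thinning used the hypergeometric expectation. Ratios set fewer than 3 UMIs in negative cells to 3 for counting and ranking. Genes were named by rule: the 5 largest ratios among genes of at least 50 UMIs, 2-fold, and higher in every library with 10 positive and 10 negative cells, and the 3 most alike by Pearson correlation. Some genes that these rules or lists hold are not reported here. Members, lists and markers were chosen with earlier results of these data known. Calculations used Python (numpy, scipy) and were tested on simulated data. Alternatives were a stricter gate, no exclusion, thinning, 2 UMIs, library medians, each library left out, 3-fold, 20 UMIs and Spearman correlation. Precision follows the number of cells per gate.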

Additional observations from a re-analysis of the deposited data

How the results depend on the processing

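No paired analysis was possible because the columns of the table carry no treatment or replicate number to pair PBS with PEPITEM samples; gates and positive and negative cells were compared within libraries instead. Shares of positive cells fell at 3000 UMIs per cell and at 2 UMIs: Tbx21 in NK cells to 56.9% and 65.1%, Eomes in NK cells to 54.9% and 63.1%, Gata3 in ILC2 to 77.9% and 80.6%, Foxp3 in T cells to 8.63% and 8.95%, and Ikzf2 in T cells to 50.8% and 53.3%. A stricter ILC2 gate gave 94.7% for Gata3 and 98.9% for Rora, and without the exclusion, when the gate grew to many cells with markers of other classes, 15.5% and 32.2%. The median over libraries put Ikzf2 in T cells at 54.4%. Leaving out each library in turn gave 8.87% (without library 3) to 12.3% for Foxp3 and 54.4% (without library 6) to 61.0% for Ikzf2 in T cells. It moved no other gate share named in this paragraph beyond its interval. Among the remaining values followed, 37 were counted as moved and 503 as the same when a library was left out. The share of Eomes in T cells, at 11.6% to 39.2% by library, is not among the shares named in this paragraph. Thinning also left out shallow cells, and gave 85 genes higher for Tbx21, 58 for Gata3, 345 for Rora, 462 for Foxp3 and 147 for Ikzf2 in T cells, 49, 25, 22, 37 and 35 for Tbx21, Eomes, Gata3, Rora and Ikzf2 in NK cells, and 25 for Ikzf2 in ILC2. With fewer UMIs per gene after thinning, these counts cannot be read against the numbers of genes tested above. From 3-fold, the counts in T cells were 74 for Tbx21, 41 for Eomes, 68 for Gata3, 359 for Rora, 260 for Foxp3 and 112 for Ikzf2, in NK cells 55, 48, 10, 24 and 21 in the order above, and 18 in ILC2. A minimum of 20 UMIs tested more genes and gave 411 for Tbx21, 324 for Eomes, 377 for Gata3, 1043 for Rora and 491 for Ikzf2 in T cells, 334 for Eomes, 215 for Gata3, 186 for Rora and 205 for Ikzf2 in NK cells, and 302 in ILC2. Shares of 1 member in cells with and without another gave 60 comparisons, and a pair counted in both directions where both members had enough cells. Those of Foxp3 in NK cells held 0 positive cells. Of the 60 comparisons, 26 had intervals apart, and these are not 26 separate pairs, since the same pair can count in each direction. Of those 26, 0 changed direction under the alternatives run. The 26 were picked because their intervals were apart, and the alternatives reuse the same cells, so this is not a separate check of them. Spearman correlation shared 0 or 1 of the 3 most alike genes with Pearson correlation for each member.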
